A study of Mus musculus with 4 samples.

Results

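Prostaglandin synthesis was followed at 3 genes of the mouse genome, Ptgs1, Ptgs2 and Ptges, through the histone H4 acetylation peaks called around each of them. The members were the peaks of the deposited lists that overlapped, by at least 1 bp, fixed windows of the mm9 build: chr2:36050000-36125000 for Ptgs1 (75 kb), chr1:151900000-151980000 for Ptgs2 (80 kb) and chr2:30730000-30785000 for Ptges (55 kb). Of 175801 peaks in all lists, 55 were members, 8 in the Ptgs1 window, 5 in the Ptgs2 window and 42 in the Ptges window. The lists carry no gene names and no mm9 gene annotation was used, so a peak is placed in a gene's window and is not assigned to its promoter, exons or introns. The windows were selected on the peak calls, covered lengths and scores of these same libraries, so what follows is a description.

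The cells were primary macrophages grown from C57BL/6 bone marrow and used on day 7 of differentiation. The 4 groups were HDAC3 KO (HDAC3 -/-) with lipopolysaccharide (LPS, a bacterial cell-envelope molecule sensed by macrophages) at 100 ng/ml for 4 h, HDAC3 KO left untreated, wt with the same LPS treatment, and wt left untreated. The group called wt is HDAC3 +/-, so it also carries 1 disrupted copy of the deacetylase gene. How the gene was disrupted, and whether marrow was pooled, is not stated in the labels. Chromatin was precipitated with an antibody against acetylated histone H4, a mark of active promoters and enhancers, and sequenced. Each group had 1 library. No spread between replicates exists for any value, no library could be left out, and no difference was tested.

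Prostaglandins are lipid signals made from arachidonic acid. Ptgs1 and Ptgs2 encode the cyclooxygenases, which both turn arachidonic acid into prostaglandin H. Ptgs1 is known as the form expressed without stimulation in many tissues, and Ptgs2 as the form that macrophages induce with LPS. Ptges encodes the membrane-bound prostaglandin E synthase, which converts the cyclooxygenase product into prostaglandin E and is also known to be inducible by LPS. In RefSeq gene order, Ptgs2 lies next to Pla2g4a, the cytosolic phospholipase that frees arachidonic acid from membranes, and next to Pdc on the other side. Ptgs1 lies between Mrrf and the olfactory receptor gene Olfr338. Ptges lies between the homeobox gene Prrx2 and Tor1b, which encodes a torsin ATPase.

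The 250 bases before the annotated start of each gene are shown for reference. A link between their letters and the acetylation calls was not tested. All 3 genes matched the RefSeq promoter table (GRCm38.p6), at chr2:36230176-36230425 on the plus strand for Ptgs1, chr1:150099781-150100030 on the plus strand for Ptgs2 and chr2:30903298-30903547 on the minus strand for Ptges. These coordinates belong to a later build than the peaks and were not set against them. Capitals mark every match to the motifs searched.
Ptgs1: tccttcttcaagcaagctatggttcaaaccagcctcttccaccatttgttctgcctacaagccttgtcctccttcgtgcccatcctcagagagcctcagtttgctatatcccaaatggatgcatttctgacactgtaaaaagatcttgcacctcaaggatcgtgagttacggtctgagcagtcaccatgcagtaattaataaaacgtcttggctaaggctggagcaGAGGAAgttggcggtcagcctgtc
Ptgs2: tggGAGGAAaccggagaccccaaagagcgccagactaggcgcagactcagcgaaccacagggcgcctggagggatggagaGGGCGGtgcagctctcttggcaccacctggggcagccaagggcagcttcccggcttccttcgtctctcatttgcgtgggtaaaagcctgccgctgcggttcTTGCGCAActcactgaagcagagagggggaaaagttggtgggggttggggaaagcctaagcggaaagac
Ptges: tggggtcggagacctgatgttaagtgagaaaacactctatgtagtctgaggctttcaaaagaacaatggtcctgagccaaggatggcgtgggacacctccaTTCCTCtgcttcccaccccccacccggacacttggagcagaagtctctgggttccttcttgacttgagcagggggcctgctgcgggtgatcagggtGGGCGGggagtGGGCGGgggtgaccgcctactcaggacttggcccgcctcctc

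Both strands were searched for the letters of 10 motifs. The Ptgs2 sequence held the C/EBP letters TTGCNNAA once, 69 to 62 bases before the start, as TTGCGCAA, which reads the same on both strands. Of 32851 promoter stretches of this length, 9.56% held that motif. The PU.1 letters GAGGAA occurred once in each of the 3 sequences and in 23.3% of all stretches. The Sp1 letters GGGCGG occurred 2 times in the Ptges sequence, once in Ptgs2 and in 32.7% of all stretches, with no match in Ptgs1. The κB consensus (7.25% of all stretches), AP-1 TGANTCA (6.75%), CRE TGACGTCA (1.55%), its core TGACG (17.8%), TATAAA (12.4%), the E-box CACGTG (6.02%) and the interferon-stimulated element (GAAA, 2 free bases and GAAA, 2.98%) had no match in the 3 stretches. The core lies within the full CRE. A match is a description of letters and not a bound site.

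A pair of readings was used for each window. Covered length is the sum of the widths of its peaks in a library, in base pairs. Scores were assigned to peaks by the authors and were read only through the share of peaks of the same list that scored lower. The lists held 39550 to 48706 peaks and covered 35.4 to 50.4 Mb, with the LPS-treated HDAC3 KO list covering the most. Read depth is not given in the files, and more covered length, more reads and a better precipitation cannot be told apart here, nor can more cells carrying the mark and more of the mark per cell. For scale, each ratio was set beside the same ratio over tiles of the window's width along the genome that had a peak in either library, and a ratio of at least 2 or at most 0.5 was counted as past the fold. The median tile, over tiles with a peak in both libraries, had a ratio of 1.19 to 1.21 for LPS-treated against untreated HDAC3 KO and of 1.22 for LPS-treated HDAC3 KO against LPS-treated wt. For LPS-treated against untreated wt and for untreated HDAC3 KO against untreated wt it was 1.00 to 1.03.

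**Figure D1:**
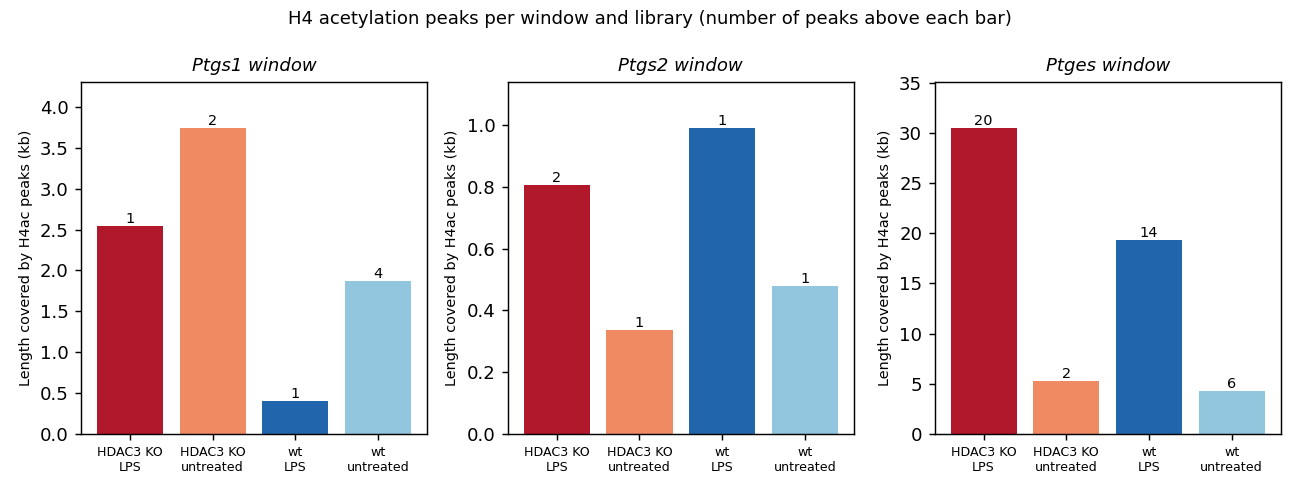
Length covered by H4 acetylation peaks (kb, linear axis from 0) in the Ptgs1, Ptgs2 and Ptges windows. Each bar is 1 library, with its number of peaks above it. Axes differ between panels: the highest bars are 3.74 kb at Ptgs1, 0.99 kb at Ptgs2 and 30.5 kb at Ptges.

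The window around Ptgs1, the cyclooxygenase usually expressed without stimulation, held longer and higher-ranked peaks in HDAC3 KO than in wt, and shorter covered length with LPS in both genotypes. Covered length was 2540 bp in LPS-treated HDAC3 KO, 3742 bp in untreated HDAC3 KO, 406 bp in LPS-treated wt and 1875 bp in untreated wt. Both HDAC3 KO libraries were above both wt libraries. With LPS the length in HDAC3 KO was 6.26 times that in wt, and 24.4% of 75-kb tiles were past the fold in that direction (16.7% of tiles with a peak in both libraries, as at Ptgs1). After division by the total covered length of each list this ratio was 4.64. In untreated cells the ratio of HDAC3 KO to wt was just under 2, at 1.996, with 9.65% of tiles past the fold (5.81% with a peak in both). It grew to 8.45 when only the 20000 highest-scored peaks of each list were counted, which left 443 of the 1875 bp in untreated wt. Division by the list totals gave 1.94 in untreated cells. Calls at Ptgs1 were thus longer in HDAC3 KO under either treatment.

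LPS-treated against untreated cells gave a ratio of 0.68 in HDAC3 KO and 0.22 in wt. The wt value was past the fold, as were 22.3% of tiles in that direction (12.0% with a peak in both). The HDAC3 KO value was not past it, with 10.9% of tiles past it (5.17% with a peak in both), but after division by the total covered length of each list it was 0.49. The LPS-treated wt value rests on 1 peak near the lower score limit of its list. The change with LPS was not tested for a difference between the genotypes.

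Overlapping peaks of the 4 lists merged into 2 regions at Ptgs1, 11375 bp apart. The first, chr2:36071429-36074001, had a peak in all 4 libraries. In HDAC3 KO it was a single peak of 2540 bp with LPS and 2565 bp without. In wt it was 1 peak of 406 bp with LPS and 3 separate peaks of 564, 443 and 433 bp without. The peak widths in HDAC3 KO were thus nearly equal between treatments, with a ratio of 0.99, and the wt calls lay inside that stretch.

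The ranks of this region separated the genotypes as well. The untreated HDAC3 KO peak scored 1944, above 99.8% of its list, and the LPS-treated HDAC3 KO peak scored 848, above 90.7%. In wt the LPS-treated peak scored 54.3, above 5.60% of its list, and the highest of the 3 untreated peaks scored 190, above 67.6%. Within each genotype the rank was lower with LPS.

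The second Ptgs1 region, chr2:36085377-36086553, had a peak in the untreated libraries only. It covered 1177 bp in untreated HDAC3 KO (score 285, above 77.4% of the list) and 435 bp in untreated wt (score 58.1, above 11.9%). Of the 2 regions in this window, 1 thus lacked a call with LPS in HDAC3 KO and in wt alike. Over the whole genome, 19.3% of merged regions called in either HDAC3 KO library and 30.5% of those called in either wt library had a peak in the untreated one alone. A peak in the untreated libraries alone was found in 3040 of 62522 merged regions.

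The Ptgs1 peaks stood alone. The nearest peaks before the window ended 56515 to 56820 bp from its edge in the 4 libraries. After it, the nearest peak began 3056 bp past the edge in untreated HDAC3 KO, with 677 bp and a score of 81.1. In the other 3 libraries it began 1063545 to 1089253 bp past the edge.

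**Figure D2:**
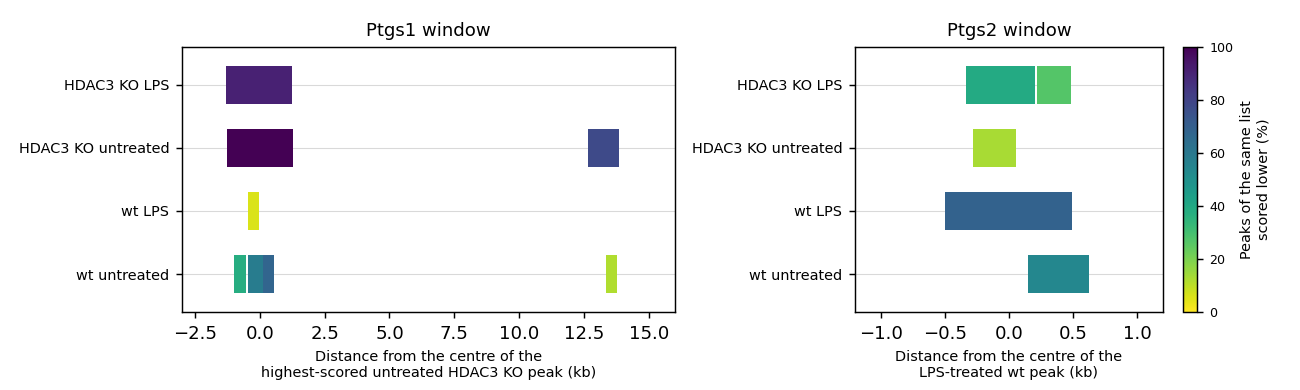
Peaks (blocks drawn to scale) of each library in the Ptgs1 window, left, and the Ptgs2 window, right, by distance in kb from the centre of a peak named on each axis. Colour gives the share of peaks of the same list scored lower. The broad Ptgs1 block is 2540 and 2565 bp wide in HDAC3 KO, against pieces of at most 564 bp in wt, and the Ptgs2 calls all lie within 1123 bp.

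Ptgs2, the LPS-inducible cyclooxygenase, had little called acetylation in any library. Covered length in its window was 806 bp in LPS-treated HDAC3 KO, 335 bp in untreated HDAC3 KO, 990 bp in LPS-treated wt and 480 bp in untreated wt. Both LPS-treated libraries were above both untreated ones. The median 80-kb tile with a peak covered 2665, 2183, 2144 and 2077 bp in the same libraries, and 78.1 to 96.9% of such tiles covered more than the Ptgs2 window.

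With LPS the covered length at Ptgs2 was 2.41 times the untreated value in HDAC3 KO and 2.06 times in wt. Both were past the fold, as were 30.0% of tiles in HDAC3 KO and 18.5% in wt (20.8 and 13.1% with a peak in both libraries). After division by the total covered length of each list the ratios were 1.74 and 1.95, neither past the fold. HDAC3 KO against wt gave 0.81 with LPS and 0.70 without, and neither was past the fold. In that direction 10.3% of tiles with LPS and 20.1% without were past it (3.75 and 8.72% with a peak in both). Divided by the list totals, the genotype ratios were 0.60 with LPS and 0.68 without, still not past the fold.

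All 5 Ptgs2 peaks merged into 1 region, chr1:151946533-151947655. The widest was the LPS-treated wt peak of 990 bp, at 151946533 to 151947522, which scored 275, above 68.8% of its list. LPS-treated HDAC3 KO had a pair of peaks of 535 and 271 bp, separated by 13 bp and both inside the wt peak, with a higher score of 107, above 39.3% of the list. Untreated HDAC3 KO had 335 bp (score 59.6, above 13.1%) and untreated wt 480 bp (score 128, above 53.9%). Ranks were higher with LPS in each genotype and lower in HDAC3 KO under each treatment.

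The untreated peaks of the genotypes did not overlap each other at Ptgs2. The HDAC3 KO peak ended at 151947084 and the wt peak began at 151947176, 91 bp further on. They fell in 1 region because the LPS-treated wt peak and the 535-bp LPS-treated HDAC3 KO peak each spanned the gap. The LPS-treated wt peak contained all 335 bp of the untreated HDAC3 KO peak and 347 of the 480 bp of the untreated wt peak. No other peak lay in the 80-kb window. The nearest outside it were 37587 to 91645 bp before its start and 18019 to 259186 bp after its end, depending on the library.

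Ptges, the terminal synthase of prostaglandin E, had the most covered length of the 3 windows in every library and the largest difference in covered length with LPS. In untreated cells that rank rests on a region at the end of the window, described further on, which may belong to a neighbouring gene. Covered length was 30478 bp in LPS-treated HDAC3 KO, 5222 bp in untreated HDAC3 KO, 19348 bp in LPS-treated wt and 4236 bp in untreated wt. The peaks numbered 20, 2, 14 and 6 in the same libraries. Both LPS-treated libraries lay far above both untreated ones. The ratio with LPS was 5.84 in HDAC3 KO and 4.57 in wt. In that direction 31.2 and 19.6% of 55-kb tiles were past the fold (20.6 and 13.8% with a peak in both). After division by the total covered length of each list the ratios were 4.22 and 4.32, so the value was no longer higher in HDAC3 KO.

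Placed among all 55-kb tiles with a peak in the same list, 0.168% covered more than the Ptges window in LPS-treated HDAC3 KO and 0.552% in LPS-treated wt. In the untreated libraries 15.4% did so in HDAC3 KO and 17.6% in wt. HDAC3 KO against wt gave a ratio of 1.58 with LPS and 1.23 without, neither past the fold, with 25.9 and 10.9% of tiles past it (17.1 and 6.68% with a peak in both). After division by total covered length the ratio with LPS was 1.17. Division by the list totals thus brought the genotype ratio at Ptges closer to 1.

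**Figure D3:**
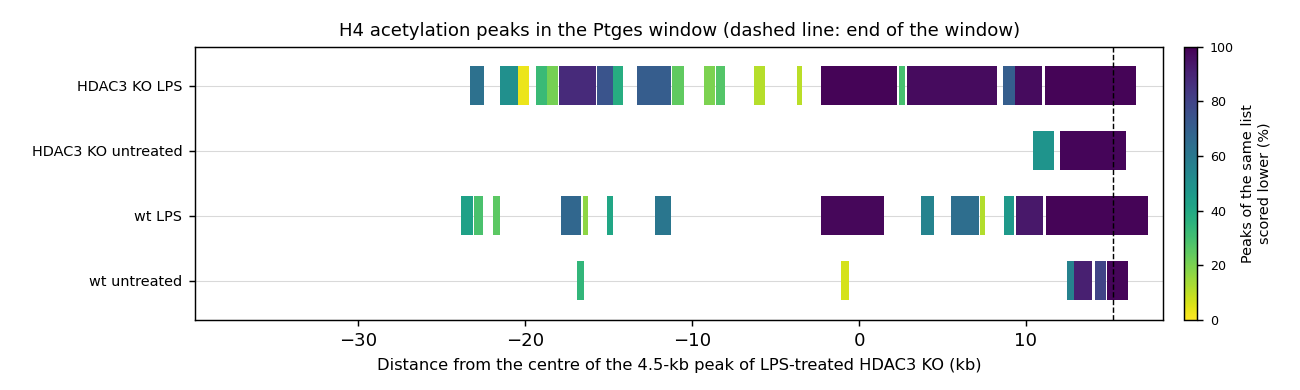
Peaks (blocks drawn to scale) in the 55-kb Ptges window by distance in kb from the centre of the 4512-bp peak of LPS-treated HDAC3 KO, with colour for the share of peaks of the same list scored lower. LPS-treated libraries hold 20 (HDAC3 KO) and 14 (wt) blocks over about 40 kb, and the untreated libraries 2 and 6, mostly at the right edge.

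The peaks merged into 19 regions at Ptges. One region had a peak in all 4 libraries, 2 in all but untreated HDAC3 KO, 6 in LPS-treated HDAC3 KO and wt alone, and 10 in LPS-treated HDAC3 KO alone. No region had a peak in an untreated library and none in the LPS-treated library of the same genotype. Of the 19 regions called in either HDAC3 KO library, 18 were called with LPS only, against 33.5% of merged regions genome-wide. Of the 9 called in either wt library, 6 were called with LPS only, against 21.7%. Between the genotypes with LPS, 10 of 19 were called in HDAC3 KO alone (31.1% genome-wide) and 0 in wt alone (15.5%). Without LPS, 3 regions were called in either genotype, 0 of them in HDAC3 KO alone (18.3% genome-wide) and 2 in wt alone (26.7%). Since the window was chosen for its calls, nothing further is read from these shares.

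The region shared by all libraries, chr2:30779144-30787073, lay at the end of the window and ran past it. Its peaks covered 7656 bp in LPS-treated HDAC3 KO, 5222 bp in untreated HDAC3 KO, 7726 bp in LPS-treated wt and 3417 bp in untreated wt. The LPS-treated HDAC3 KO value includes a 604-bp peak that lay wholly past the window's end and is not a member. The region's highest scores were above 99.1, 98.7, 99.2 and 98.6% of the peaks of those lists. The scores with LPS were 3100, a value at which 370 peaks of the LPS-treated HDAC3 KO list and 288 of the LPS-treated wt list were tied. The last member peak crossed the window's end by 1381, 780, 2073 and 863 bp. This region therefore ranked near the top of each list, and all of the untreated HDAC3 KO covered length at Ptges lay in it.

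The remaining Ptges peaks covered 23426 bp in LPS-treated HDAC3 KO, 0 bp in untreated HDAC3 KO, 11622 bp in LPS-treated wt and 819 bp in untreated wt. The region set aside was picked, after the data were seen, because it was called in the untreated libraries too, so what remains is short in untreated cells by construction and nothing is read from a ratio with LPS. Between the LPS-treated libraries the remaining length in HDAC3 KO was 2.02 times that in wt. With LPS the region set aside was longer in wt, so leaving it out raised this ratio from 1.58. The ratio of 2.02 was not divided by the list totals. Without the shared region the untreated Ptges lengths were below the full Ptgs1 lengths in both genotypes. The Ptgs1 region called in all 4 libraries was kept in that comparison. With it left out too, Ptgs1 covered 1177 bp in untreated HDAC3 KO and 435 bp in untreated wt, so only HDAC3 KO kept the order.

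The strongest of these regions was chr2:30767504-30772028. It was a single peak of 4512 bp in LPS-treated HDAC3 KO (score 3100, above 99.1% of the list) and of 3767 bp in LPS-treated wt (score 2100.4, above 98.2%). Untreated HDAC3 KO had no peak there, and untreated wt had 428 bp with a score of 54.2, above 6.53% of its list. The call thus stood among the top peaks of both LPS-treated lists and was weak or missing in the untreated ones.

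Between it and the shared region lay chr2:30772658-30778016. In LPS-treated HDAC3 KO this was 1 unbroken peak of 5359 bp with a score of 1637, above 97.0% of the list. In LPS-treated wt the same stretch held 3 peaks of 1657, 772 and 348 bp, the highest with a score of 231, above 64.4%. Neither untreated library had a peak there. The stretch was continuous in HDAC3 KO and patchy in wt.

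On the other side, chr2:30751824-30754003 had a peak in 3 libraries. It covered 2180 bp in LPS-treated HDAC3 KO (score 718, above 88.2% of the list), 1492 bp in LPS-treated wt (256, above 67.0%) and 391 bp in untreated wt (83.0, above 34.3%). The regions chr2:30754058-30755035 and chr2:30756500-30758533 were called with LPS alone. They covered 978 and 2034 bp in HDAC3 KO, with scores of 349 and 306, and 311 and 981 bp in wt, with scores of 108 and 203. All 3 regions were longer in LPS-treated HDAC3 KO than in LPS-treated wt.

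Another pair of regions scored at least 200 in a library, chr2:30745940-30747305 and chr2:30778415-30779136, was also called with LPS alone. The first covered 827 bp in HDAC3 KO (score 226) and 1267 bp in wt (114), and the second 722 bp in HDAC3 KO (302) and 603 bp in wt (126). The region chr2:30747871-30749346, below that score limit, covered 1060 bp in HDAC3 KO and 424 bp in wt. Over the 9 regions called in both LPS-treated libraries, covered length was greater in HDAC3 KO at 7 and the rank inside the list was higher in HDAC3 KO at 8. The same counts were not made genome-wide, so they are not read as particular to Ptges. The median peak width of the whole list was 836 bp in LPS-treated HDAC3 KO and 722 bp in LPS-treated wt. The summed length of these 9 regions was 25328 bp in HDAC3 KO and 19348 bp in wt. The HDAC3 KO sum includes a 604-bp peak that lay wholly past the window's end and is not a member.

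The 10 regions called in LPS-treated HDAC3 KO alone were weak. They were 328 to 737 bp wide, 5754 bp in all, with scores of 52.5 to 103, above 3.06 to 37.8% of that list. They lay in the gaps between regions that the LPS-treated libraries shared. From the first to the last base of its peaks the LPS-treated HDAC3 KO calls spanned 39.9 kb, of which peaks covered 76.4%, with a longest gap of 1932 bp. In LPS-treated wt the span was 41.1 kb, with 47.0% covered and a longest gap of 8995 bp. Each span ends with the last peak that overlaps the window, so the right-hand limit of the domain was not measured.

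**Figure D4:**
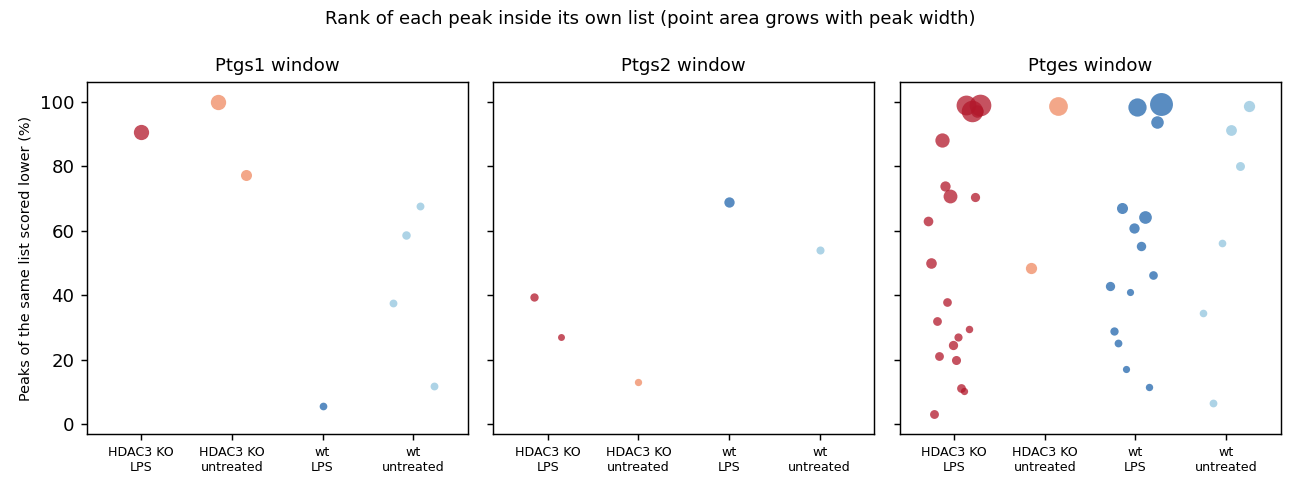
Rank of each member peak as the share (%) of peaks of its own list scored lower, by window and library; each point is 1 peak, its area grows with peak width and points of a library run from left to right by position. The Ptgs1 peaks of HDAC3 KO lie at 77.4 to 99.8%, the Ptgs2 peaks at 13.1 to 68.8% over all libraries, and the Ptges peaks from 3.06 to 99.2%.

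The nearest peaks outside the Ptges window were alike on 1 side and different on the other. Before its start the nearest peak ended 45223 to 45567 bp away in the 4 libraries. After its end the nearest wholly outside peak began 1461 bp away in LPS-treated HDAC3 KO, 13067 bp in untreated HDAC3 KO, 2482 bp in LPS-treated wt and 12736 bp in untreated wt. The called domain of the LPS-treated libraries thus continued past the window toward higher coordinates.

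Set side by side, the 3 windows had 3 patterns. The ratio of LPS-treated to untreated covered length in HDAC3 KO was 0.68 at Ptgs1, 2.41 at Ptgs2 and 5.84 at Ptges, and in wt it was 0.22, 2.06 and 4.57 in the same order. The ratio of HDAC3 KO to wt with LPS was 6.26 at Ptgs1, 0.81 at Ptgs2 and 1.58 at Ptges, and without LPS it was 1.996, 0.70 and 1.23. Of these 12 ratios, 6 were past the fold. The order of the windows was the same in both genotypes for LPS and under both treatments for genotype. For genotype without LPS, that order rests on the Ptges region shared by all libraries, which may belong to a neighbouring gene. With it left out, Ptges covered 0 bp in untreated HDAC3 KO and 819 bp in untreated wt, which puts Ptges below Ptgs2. The other windows were kept whole in that comparison. Comparisons that share a library are not independent of each other.

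**Figure D5:**
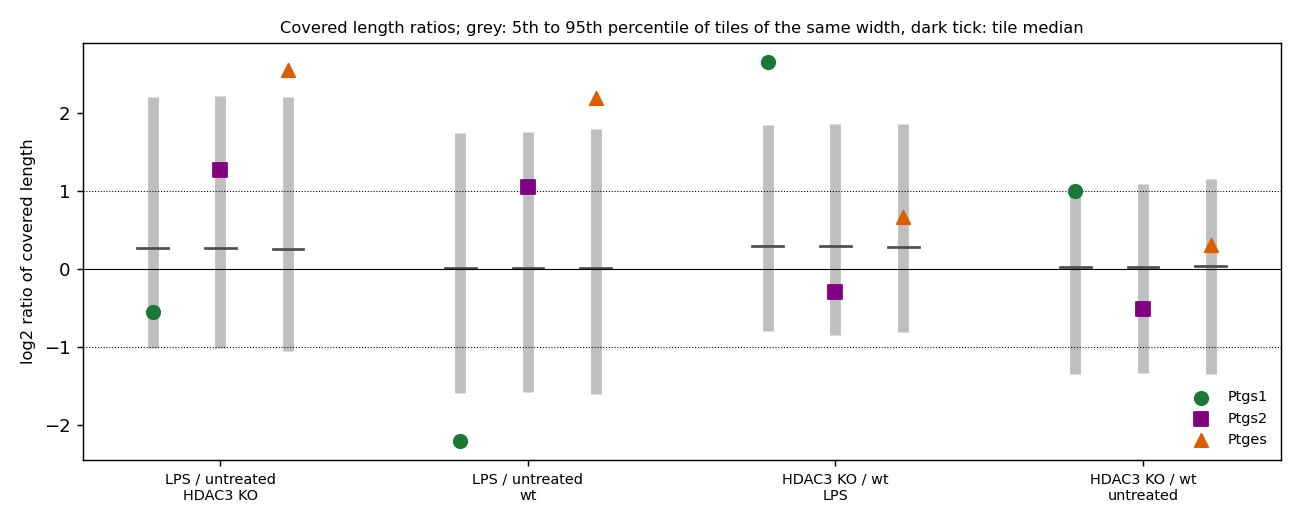
Log2 ratio of covered length for each window (circle Ptgs1, square Ptgs2, triangle Ptges) in the 4 comparisons. Grey bars span the 5th to 95th percentile of tiles of the same width with a peak in both libraries, dark ticks their median and dotted lines a 2-fold ratio. Ptges lies above the grey bar for LPS in HDAC3 KO (2.55) and wt (2.19), Ptgs1 above it for HDAC3 KO against wt with LPS (2.65) and below it for LPS in wt (-2.21), and the Ptgs2 points lie inside the bars.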

How the data were processed

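Acetylated histone H4 was mapped by ChIP-seq in 4 libraries, 1 per group, grouped by their titles. Bowtie and mm9 are named in the submitters' processing notes, and per the file headers, MACS called the peaks of each library against input. Versions, settings and the input used for each library are not given in the sources used here. The deposited lists give a start, an end and a score per peak, made by the authors for each library separately. The scale of the score is not stated, its lowest value is about 50.0 in each list, and it depends on depth and input, so it was ranked within a list only. Read depth is unknown.

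Peaks overlapping a window were counted whole. Peaks sharing at least 1 bp were merged into regions. Regions with a peak in all 4 libraries, or scored at least 200 in any, are given by position, and most others as ranges. Background ratios used tiles of the window's width. Coordinates are counted from 1. The windows, members and lists were chosen with earlier results of these data known. Pathway genes and cell type markers needed an mm9 annotation and were not run, and the Hdac3 locus was not analysed here. Alternatives were stricter score limits, clipped peaks, windows 10 kb wider or narrower on each side, joined peaks, scaling by total covered length and, added after the data were seen, Ptges without the region shared by all libraries and tiles with a peak in both libraries. The counting was checked on simulated lists. Software was Python 3.11.15, numpy 2.4.6 and matplotlib 3.10.9.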

Additional observations from a re-analysis of the deposited data

Results flagged for a closer look

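At 3 Ptges regions the covered length differed between HDAC3 KO and wt in opposite directions with and without LPS; with 1 library a group, none of these differences was tested. At chr2:30751824-30754003, HDAC3 KO minus wt was 688 bp with LPS and -391 bp without. At chr2:30767504-30772028 it was 745 bp with LPS and -428 bp without. At chr2:30779144-30787073 it was -70 bp with LPS and 1805 bp without. The LPS-treated HDAC3 KO length there includes a 604-bp peak wholly past the window's end. At the first 2 regions the untreated HDAC3 KO library had no peak and the untreated wt library 1 peak with a score of 83.0 or 54.2.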

How the results depend on the processing

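No paired analysis was possible because each group had 1 library, and for the same reason no library was left out. Over the 12 ratios of covered length, 8 alternatives gave 73 values; all 73 kept their direction, 68 moved by no more than 1.5 times and 5 moved by more. The 5 were Ptges for HDAC3 KO against wt with LPS (2.52) and for LPS against untreated wt (11.0), both with the window 10 kb narrower on each side, the same wt ratio without the region shared by all libraries (14.2, raised by construction because that region was called in untreated cells), and Ptgs1 for HDAC3 KO against wt untreated with peaks at or above the list median score (3.72) or the 20000 highest-scored peaks (8.45). Another 15 had 0 bp in 1 or both libraries and no ratio: among peaks at or above the median score, for example, no Ptgs2 peak was left in HDAC3 KO. Those 15 are not among the 73 values that kept their direction. At Ptges, untreated HDAC3 KO and wt had 0 and 819 bp with the narrower window, and also without the shared region. That direction is opposite to the full window, with 5222 and 4236 bp. In 8 cases the side of the 2-fold limit changed: the 2.52, 3.72 and 8.45 above, 2.02 at Ptges without the shared region, 2.36 at Ptgs1 for untreated HDAC3 KO against wt with the wider window and, after scaling by total covered length, 0.49 at Ptgs1 and 1.74 at Ptgs2 for LPS in HDAC3 KO and 1.95 at Ptgs2 for LPS in wt. Counting only tiles with a peak in both libraries lowered the background share in all 12 comparisons. In proportion it fell most at the Ptgs2 width for LPS-treated HDAC3 KO against wt (3.75%, against 10.3% of tiles with a peak in either). In percentage points it fell most at the same width for untreated HDAC3 KO against wt (8.72%, against 20.1%). Read depth is unknown, so what it limits was not measured.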
